A study of Mus musculus with 14 samples.

Results

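The 10 genes described here carry out or control renal gluconeogenesis and insulin signalling, and were chosen by name: Pck1, Fbp1, G6pc1, Pcx, Ppargc1a, Foxo1, Insr, Irs1, Irs2 and Depp1. All 10 were matched through the GENCODE mouse annotation to 1 identifier each among the 56980 gene identifiers counted, and all 10 were among the 22339 genes that passed the filter on low counts. RNA came from the whole kidneys of 14 females, 18 weeks old and of the genotype labelled WT, from the outbred CD-1 stock. The mice formed 4 groups: T-ND (term birth, no treatment, n = 4), T-D (term birth and streptozotocin, STZ, n = 4), PT-ND (preterm birth, no treatment, n = 3) and PT-D (preterm birth and STZ, n = 3). STZ is a toxin taken up by the insulin-producing beta cells of the pancreas, and was injected at a low dose in early adulthood to make the mice diabetic. By the methods of the study, some PT-D mice, and none in T-D, were injected with STZ in a further round, and which of the sequenced mice these were is not stated. Preterm mice were delivered by Caesarean section and raised by foster mothers given acepromazine, a sedative, while term mice were born vaginally and stayed with their mothers, so that preterm birth cannot be told apart from these. Mice of all 4 groups received cationic ferritin before the kidneys were collected.

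Apart from the liver, the kidney is the main organ that makes glucose, and it does so in the proximal tubule, largely from lactate and glutamine. Pyruvate carboxylase (Pcx) turns pyruvate into oxaloacetate, phosphoenolpyruvate carboxykinase (Pck1) takes it to phosphoenolpyruvate, fructose-1,6-bisphosphatase (Fbp1) acts later in the path, and the catalytic subunit of glucose-6-phosphatase (G6pc1) releases free glucose. Insulin binds its receptor (Insr), which phosphorylates the adaptor proteins IRS1 and IRS2; through PI3-kinase and AKT this keeps the transcription factor FOXO1 (Foxo1) out of the nucleus. FOXO1 and its coactivator PGC-1alpha (Ppargc1a) drive Pck1 and G6pc1 in the liver. Irs2 and Depp1, a regulator of autophagy, are known targets of FOXO factors.

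The bases before the start of transcription are shown for the 4 genes on which the results below turn: Depp1 and Irs2, each of which passed the test of STZ in 1 of the 2 births (Depp1 in term, Irs2 in preterm mice), and Pck1 and G6pc1, which moved together between kidneys. A window was at hand for 9 of the 10 genes, in RefSeq sequence of build GRCm38.p6, with G6pc1 under its older symbol G6pc. Each window is the 250 bases upstream of the start, 5′ to 3′ on the gene's strand. Capitals mark any of 4 short motifs searched on both strands: GTAAACA and GTAAATA, which FOXO factors can bind, CAAAACA, the core of insulin response sequences, and ACGTCA, the core of the cAMP response element.
Depp1 (chr6:116650434-116650683, + strand): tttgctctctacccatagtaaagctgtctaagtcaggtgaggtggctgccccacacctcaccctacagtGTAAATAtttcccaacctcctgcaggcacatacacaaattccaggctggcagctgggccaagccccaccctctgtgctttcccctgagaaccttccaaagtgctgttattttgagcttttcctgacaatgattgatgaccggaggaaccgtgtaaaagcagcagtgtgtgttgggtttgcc
Irs2 (chr8:11008930-11009179, − strand): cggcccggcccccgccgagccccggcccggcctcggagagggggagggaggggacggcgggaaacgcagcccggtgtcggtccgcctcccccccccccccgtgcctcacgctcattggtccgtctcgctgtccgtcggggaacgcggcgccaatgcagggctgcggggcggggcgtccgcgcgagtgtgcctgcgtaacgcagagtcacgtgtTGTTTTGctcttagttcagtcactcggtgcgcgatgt
Pck1 (chr2:173152823-173153072, + strand): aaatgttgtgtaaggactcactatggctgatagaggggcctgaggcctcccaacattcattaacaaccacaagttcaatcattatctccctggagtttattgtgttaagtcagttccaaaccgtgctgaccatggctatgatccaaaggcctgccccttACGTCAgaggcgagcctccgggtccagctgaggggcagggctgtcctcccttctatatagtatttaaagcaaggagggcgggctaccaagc
G6pc1 (chr11:101367466-101367715, + strand): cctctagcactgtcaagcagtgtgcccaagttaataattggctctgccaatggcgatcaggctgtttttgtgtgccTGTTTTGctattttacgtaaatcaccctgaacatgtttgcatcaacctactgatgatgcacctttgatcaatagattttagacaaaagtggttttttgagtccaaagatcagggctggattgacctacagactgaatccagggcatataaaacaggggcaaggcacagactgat
In the Depp1 window GTAAATA lay 181 to 175 bases before the start. In the Irs2 window the reverse of CAAAACA lay 37 to 31 bases before the start, and in the G6pc1 window 174 to 168 bases before it. In the Pck1 window ACGTCA lay 91 to 86 bases before the start. Of the other 5 genes with a window, Irs1 held the reverse of CAAAACA at 2 places and Ppargc1a held ACGTCA at 1, and the windows of Fbp1, Foxo1 and Pcx held none of these letters. Over all 32851 windows in the table, GTAAACA occurred in 3.17%, GTAAATA in 2.73%, CAAAACA in 5.56% and ACGTCA in 6.47%. None of the 4 motifs overlapped another in these windows. A match describes the letters only.

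The libraries held between 16697246 and 28673176 counts on genes, with a median of 18765582. T-D replicate 4 had the fewest genes with a count, 19589. Among the T-D kidneys it was the lowest for each of the 10 genes but Fbp1, for which it was the highest. Its summed endothelial and podocyte markers, 5210 and 2897 normalized counts, were the lowest of the 14 kidneys. Markers of the proximal tubule were abundant in every kidney, with a summed level over 10 genes of 136400 to 204100 normalized counts, and 9 of the 10 exceeded 100 counts in every library. Of 5 adrenal cortex markers 1 was at 0 in all libraries, and their summed level stayed between 40.8 and 101 normalized counts. The summed level of 6 adipocyte markers ranged from 948 to 8440 normalized counts between kidneys. In T-ND and in PT-D the kidney with the highest adipocyte sum was also the highest for Depp1 and Irs2. In PT-ND it was the highest for Depp1 and the lowest for Irs2, and in T-D the highest for neither. The part of these markers in the levels of the 10 genes was not tested. The 5 libraries whose name ends in the letter a (replicates 1 and 2 of T-ND, 1 of T-D, 2 of PT-ND and 1 of PT-D) are marked because the meaning of the letter is not given in the labels. The principal component that took most variance, 23.9%, put T-ND replicate 3 at 13.9, on the side of 6 of the 7 STZ kidneys, while the other 3 T-ND kidneys lay between -27.6 and -3.32. Normalized counts are counts divided by the TMM-scaled library size and multiplied by its mean, so that they read as counts in a library of average size.

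Levels were compared between genes per kilobase of exon. Pck1 was the most abundant on average, at 25200 normalized counts per kilobase over the 14 kidneys, followed by Fbp1 at 11700, G6pc1 at 6830 and Pcx at 1360. Pck1 exceeded Fbp1 in 12 of 14 kidneys, and Fbp1 exceeded G6pc1 in 13. Depp1 followed at 684 normalized counts per kilobase. Foxo1 (139), Ppargc1a (137) and Insr (122) had close means per kilobase and changed places between kidneys: Foxo1 exceeded Ppargc1a in 8 of 14 kidneys and Ppargc1a exceeded Insr in 9. Insr exceeded Irs2 (101) in 11. Irs1 was last at 5.92 normalized counts per kilobase, below Irs2 in all 14 kidneys, with 10 to 101 raw counts per library. Pck1 alone took between 0.181% and 0.758% of all counts on genes. Depp1 and Irs1 varied most between the lowest and the highest kidney, by 8.36-fold and 7.85-fold, and Fbp1 least, by 1.61-fold.

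**Figure D1:**
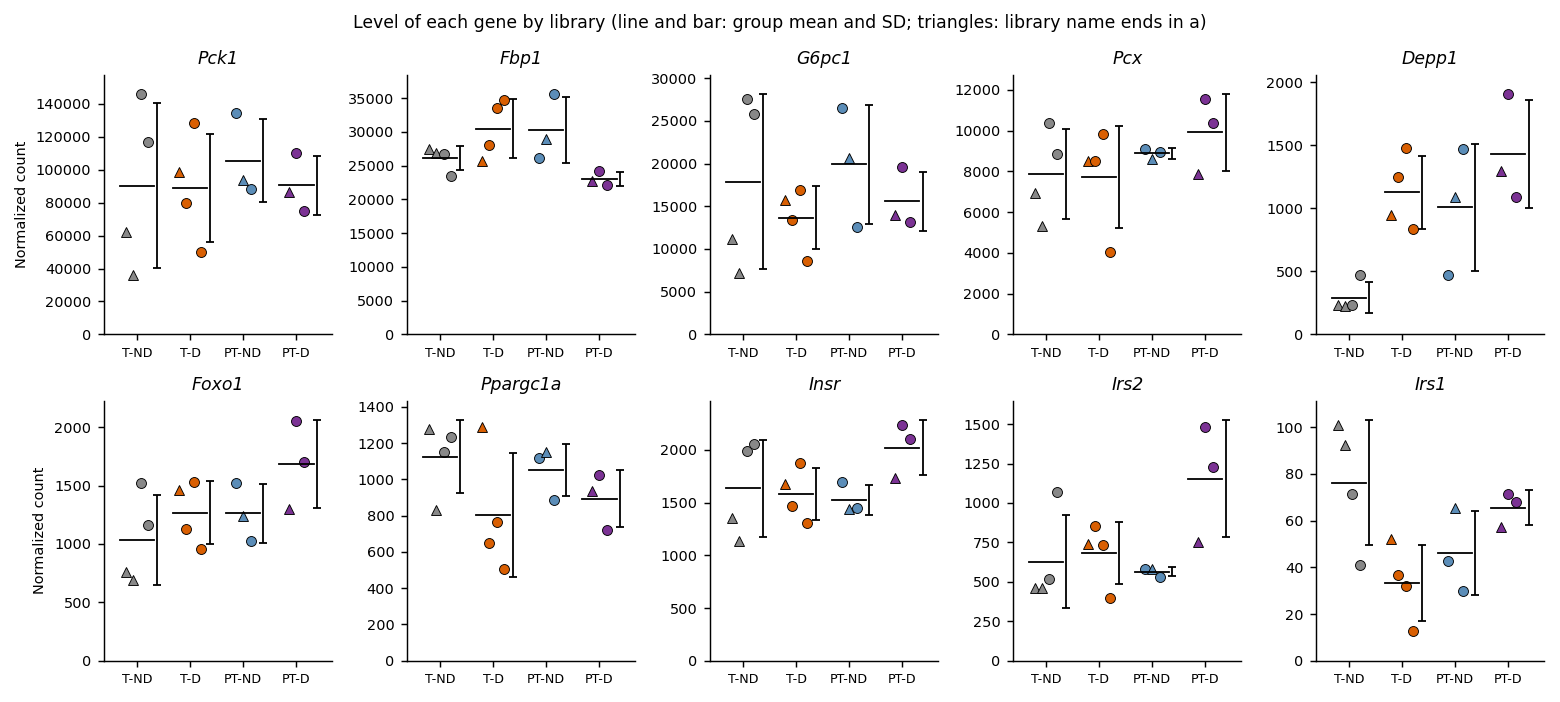
Normalized count (y axis, linear, from 0) of each of the 10 genes in the 14 kidneys, by group on the x axis, with genes ordered by their mean per kilobase; lines and bars give the group mean and SD, and triangles are libraries whose name ends in a. Depp1 lies at 228 to 475 in T-ND and at 835 to 1475 in T-D, Irs2 is highest on average in PT-D, and Pck1 and G6pc1 split the T-ND kidneys into a low and a high pair.

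Depp1 (chr6:116627570-116629755, + strand, GRCm39) had the largest log2 fold change among the 10 genes in term mice. In T-ND it stood at 234, 228, 234 and 475 normalized counts. In T-D it stood at 950.1, 1245, 1475 and 835. Every T-D kidney thus lay above every T-ND kidney. In whole kidney RNA, fewer cells of a type and less RNA per cell cannot be told apart. The log2 fold change of T-D over T-ND was 1.93 ± 0.27 (SE), with an adjusted p of 0.0234 by edgeR's quasi-likelihood test with Benjamini-Hochberg adjustment over all 22275 genes tested, the test behind every adjusted p given here unless DESeq2 is named. A gene is called where this adjusted p is under 0.05, and Depp1 was the 1 gene of the 10 called in this comparison, in which 0.0673% of all genes were called. It was also the 1 gene whose groups did not overlap, against 6.66% of all genes. The estimate stayed between 1.77 and 2.26 when each library was left out in turn, but the call was lost without T-ND replicate 1 (adjusted p = 0.111), T-ND replicate 2 (0.0805), T-D replicate 2 (0.0894) or T-D replicate 3 (0.0799). Without the 5 libraries whose name ends in a, the estimate was 1.74 and the adjusted p 0.444.

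Depp1 also lay above the T-ND range in 2 of the 3 preterm kidneys without STZ. The 3 PT-ND kidneys held 471, 1088 and 1468 normalized counts, and the 3 PT-D kidneys 1299, 1909 and 1087. The ranges of both preterm groups overlapped, and the lowest PT-ND kidney lay just below the highest T-ND kidney. PT-D exceeded T-ND by a log2 fold change of 2.28 ± 0.29 (adjusted p = 0.0147), and Depp1 was again the 1 gene of the 10 called, against 2.76% of all genes. Its groups did not overlap there, as for 23.2% of all genes, and the other 9 genes overlapped. Without PT-D replicate 2 the adjusted p was 0.0541, and without the 5 libraries named with a it was 0.0867. PT-ND differed from T-ND by 1.78 ± 0.36 on the log2 scale without passing the threshold (adjusted p = 0.152). By edgeR no gene of the 10 was called in that comparison (1, Depp1, at an unadjusted p under 0.05), where 0.0809% of all genes were, and none was free of overlap, against 11% of all genes (with upper quartile normalization Depp1 was). An unadjusted p under 0.05 was held by 10.7% of all genes there. DESeq2 called Depp1 there with an adjusted p of 0.000605, among 294 of 22213 genes. These comparisons share the 4 T-ND kidneys.

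After STZ in preterm mice the Depp1 difference was 0.51 on the log2 scale with a 95% confidence interval from -0.25 to 1.26 (adjusted p = 0.364). Fitted over both births, with birth as a term, the STZ difference in Depp1 was 1.32 ± 0.31 with an adjusted p of 0.0551. By edgeR none of the 10 genes was called in this fit, in which 0.613% of all genes were, and 3 had an unadjusted p under 0.05: Depp1, Irs2 and Ppargc1a. Of all genes 14.5% had such a p. Depp1 passed the threshold without T-ND replicate 3 (0.0425), without PT-ND replicate 3 (0.0272) and in DESeq2. The interaction, the difference between the STZ effect in preterm and in term mice, was -1.44 ± 0.49 for Depp1 (adjusted p = 0.0831). It was called without PT-ND replicate 1 (-1.77, adjusted p = 0.0313).

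Irs2 (chr8:11034681-11059499, − strand), an adaptor of the insulin receptor in liver and beta cells, was the 1 gene of the 10 called between PT-D and PT-ND. The PT-ND kidneys held 583, 581 and 532 normalized counts, within a narrow range. The PT-D kidneys held 751, 1484 and 1227, all of them higher. The PT-D libraries were also the deeper ones, at 21079460 to 26187982 counts against 18188647 to 18922371 in PT-ND, and the part of depth was not tested. The log2 fold change was 1.03 ± 0.22 with an adjusted p of 0.016. In this comparison 12.9% of all genes were called, 1593 higher and 1288 lower, so that 1 of 10 is near the background. Upper quartile normalization put that split at 1315 higher and 1741 lower and kept the call of Irs2. The call was lost without PT-ND replicate 2 (adjusted p = 0.0568), without PT-ND replicate 3 (0.0604) and in a joint fit of all 14 libraries (0.0594).

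In term kidneys the groups overlapped for Irs2. The T-ND kidneys held 459, 464, 520 and 1068 normalized counts and the T-D kidneys 739, 855, 734 and 400.3, and the highest T-ND kidney lay above all T-D kidneys. The log2 fold change was 0.11, with a 95% interval from -0.54 to 0.76. Between the STZ groups, PT-D lay above T-D by 0.75 ± 0.27 (adjusted p = 0.136), and PT-D lay above T-ND by 0.87 ± 0.32 (adjusted p = 0.144). The interaction was 0.91 ± 0.43 (adjusted p = 0.211), so that a difference between the births in the STZ effect on Irs2 did not pass the test.

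Irs1 (chr1:82210822-82269338, − strand), the other insulin receptor adaptor, had a lower mean with STZ in term mice. The T-ND kidneys held 101, 92.2, 71.2 and 40.8 normalized counts and the T-D kidneys 52.1, 36.6, 32.01 and 12.9. One T-ND kidney lay within the T-D range, and the log2 fold change of -1.20 ± 0.42 did not pass the test (adjusted p = 0.317). The PT-ND kidneys held 42.8, 65.6 and 29.999, and the PT-D kidneys 57.5, 71.5 and 68.0. Every PT-D kidney exceeded every T-D kidney, and the log2 fold change was 0.96 ± 0.42 (adjusted p = 0.202). By edgeR none of the 10 genes was called between PT-D and T-D (2, Irs1 and Irs2, at an unadjusted p under 0.05, and none by DESeq2), against 0.193% of all genes, and the groups of 2 of the 10, Irs1 and Fbp1, did not overlap, against 23% of all genes. An unadjusted p under 0.05 was held by 22.3% of all genes between PT-D and T-D. The interaction for Irs1 was 1.69 ± 0.58 (adjusted p = 0.0872). By edgeR none of the 10 genes was called for an interaction, against 6.23% of all genes, while Irs1, Fbp1 and Depp1 had an unadjusted p under 0.05 and were called by DESeq2. For the interaction 24.5% of all genes had such a p, and DESeq2 called 3086 of 22309. Per kilobase, Irs2 exceeded Irs1 by 5.76-fold to 39.5-fold over the 14 kidneys, with 5.76-fold to 33.2-fold in T-ND alone.

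Insr (chr8:3172061-3329647, − strand) encodes the receptor itself. Its level was 1353, 1139, 1990.3 and 2058 normalized counts in T-ND and 1674, 1468, 1872 and 1309 in T-D. It was 1692, 1442 and 1448 in PT-ND and 1731, 2232 and 2102 in PT-D. The PT-D kidneys all lay above the PT-ND kidneys, by a log2 fold change of 0.40 ± 0.15 that did not pass the test (adjusted p = 0.106). Insr and Irs2 (higher in PT-D) and Fbp1 (lower) were the 3 genes of the 10 whose PT-D and PT-ND kidneys did not overlap, against 34.4% of all genes, and with upper quartile normalization the Insr groups overlapped. In term mice the log2 fold change was -0.06 with a 95% interval from -0.51 to 0.39.

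Foxo1 (chr3:52175757-52260642, + strand) was 762, 693, 1522 and 1164 normalized counts in T-ND and 1459, 1131, 1527 and 955 in T-D. It was 1522, 1238 and 1025 in PT-ND and 1302, 2050.1 and 1705 in PT-D. The groups overlapped in each of the 5 pairs compared. PT-D exceeded T-ND by 0.70 ± 0.27 on the log2 scale (adjusted p = 0.153), which passed the test without T-ND replicate 3 (0.94, adjusted p = 0.0326) and with the library-name letter as a covariate (adjusted p = 0.0489). Ppargc1a (chr5:51611592-51725068, − strand) had lower means with STZ in both births, at 1124 ± 202 (SD) normalized counts in T-ND against 801 ± 342 in T-D, and 1051 ± 145 in PT-ND against 893 ± 156 in PT-D. Over both births the log2 difference was -0.38 ± 0.18 (adjusted p = 0.345).

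**Figure D2:**
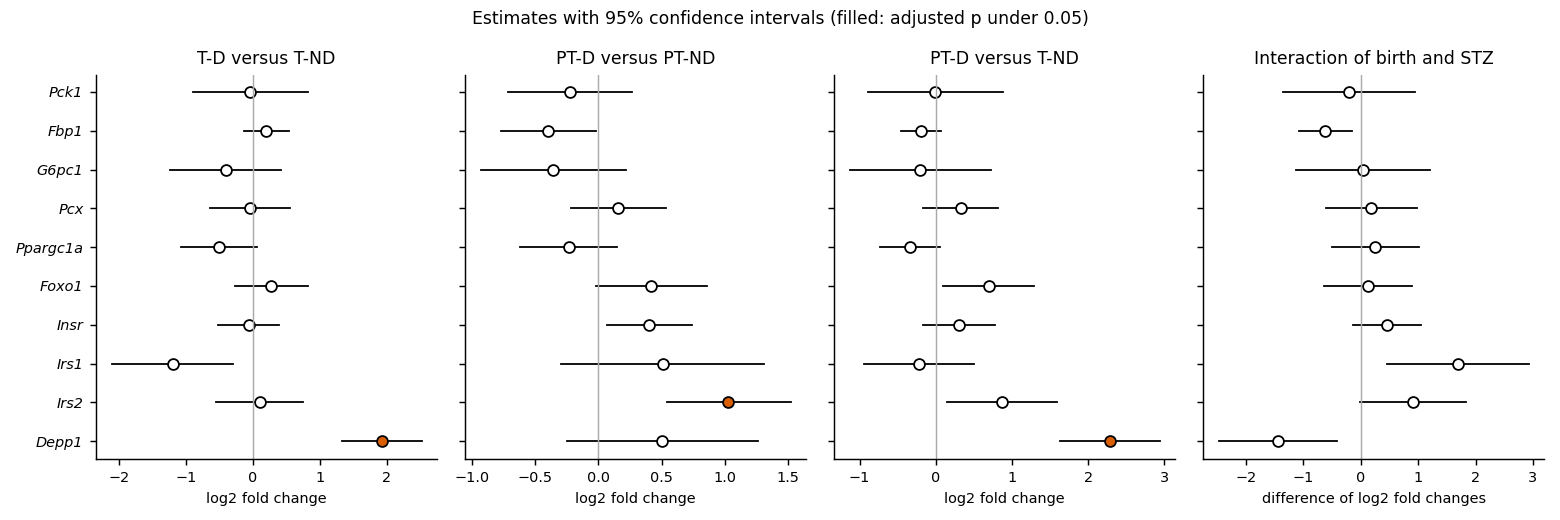
Log2 fold change (x axis) of each of the 10 genes (y axis) with its 95% confidence interval, for T-D over T-ND, PT-D over PT-ND and PT-D over T-ND, and the interaction (the STZ effect in preterm minus that in term mice); filled points have an adjusted p under 0.05. Depp1 is filled at 1.93 and 2.28, Irs2 at 1.03, and no point is filled for the interaction.

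The 4 enzymes were not called by edgeR in any of the 7 comparisons, in which Fbp1 had an unadjusted p under 0.05 in 2 and the other 3 in none. Pck1 (chr2:172994744-173001066, + strand) ranged from 36252 to 145970 normalized counts within T-ND alone, with group means of 90337 ± 50087 (SD) in T-ND, 88963 ± 32786 in T-D, 105470 ± 25073 in PT-ND and 90345 ± 17961 in PT-D. The log2 fold change of T-D over T-ND was -0.04, with a 95% interval from -0.89 to 0.82, and that of PT-D over PT-ND was -0.22, with an interval from -0.72 to 0.27. These intervals leave room for changes of nearly 1 on the log2 scale in term mice. G6pc1 (chr11:101258369-101268729, + strand) had an interval from -1.23 to 0.42 in term and from -0.93 to 0.22 in preterm mice. Pcx (chr19:4559902-4672189, + strand), which feeds the path from pyruvate, had intervals from -0.64 to 0.55 in term and from -0.22 to 0.54 in preterm mice, and 8.64% of its exon bases overlap the genes Lrfn4 and Rce1. The counting ignored strand, and of Irs2 and Foxo1 8.0% and 7.27% of the exon bases are likewise shared with other genes, so reads there cannot be assigned with certainty.

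Fbp1 (chr13:63012567-63036263, − strand) varied less than the other enzymes, and its estimates with STZ had opposite signs in term and preterm mice. It stood at 27469, 26867, 26712 and 23504 normalized counts in T-ND and at 25630, 28020, 33565 and 34696 in T-D. It stood at 26125, 29002 and 35639 in PT-ND and at 22704, 24196 and 22156 in PT-D, below every PT-ND and every T-D kidney. The log2 fold change was 0.20 ± 0.15 in term mice (adjusted p = 0.62) and -0.39 ± 0.17 in preterm mice (adjusted p = 0.152). The interaction, -0.62 ± 0.22, did not pass the test either (adjusted p = 0.0965). DESeq2 gave it an adjusted p of 0.019.

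Pck1 and G6pc1 moved together from kidney to kidney. Within T-ND, replicates 1 and 2 held 62132 and 36252 normalized counts of Pck1 and 11126 and 7152 of G6pc1, and replicates 3 and 4 held 145970 and 116990 of Pck1 and 27553 and 25749 of G6pc1. The ratio of Pck1 to G6pc1 per kilobase stayed between 2.98 and 4.96 over all 14 kidneys. Pearson's r of their log2 levels was 0.934 over the 14 libraries (Spearman's rho 0.93), and 0.954 after each group's mean was subtracted. Foxo1 and Insr followed the same division, at 762 and 693 against 1522 and 1164 normalized counts of Foxo1 within T-ND, with r of 0.872 between the 2 genes and 0.93 within groups. Within groups, Pck1 had an r of 0.902 with Foxo1 and of 0.931 with Insr. Fbp1 did not follow: its r was -0.147 with Pck1 and -0.618 with Irs1. The low T-ND pair are the libraries of that group whose name ends in a, so the split within T-ND cannot be told apart from the letter. In the other groups the a library lay between the highest and the lowest kidney for Pck1 and G6pc1. For Foxo1 it was the lowest kidney of PT-D, at 1302 normalized counts, and for Insr the lowest of PT-D and of PT-ND, at 1731 and 1442.

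**Figure D3:**
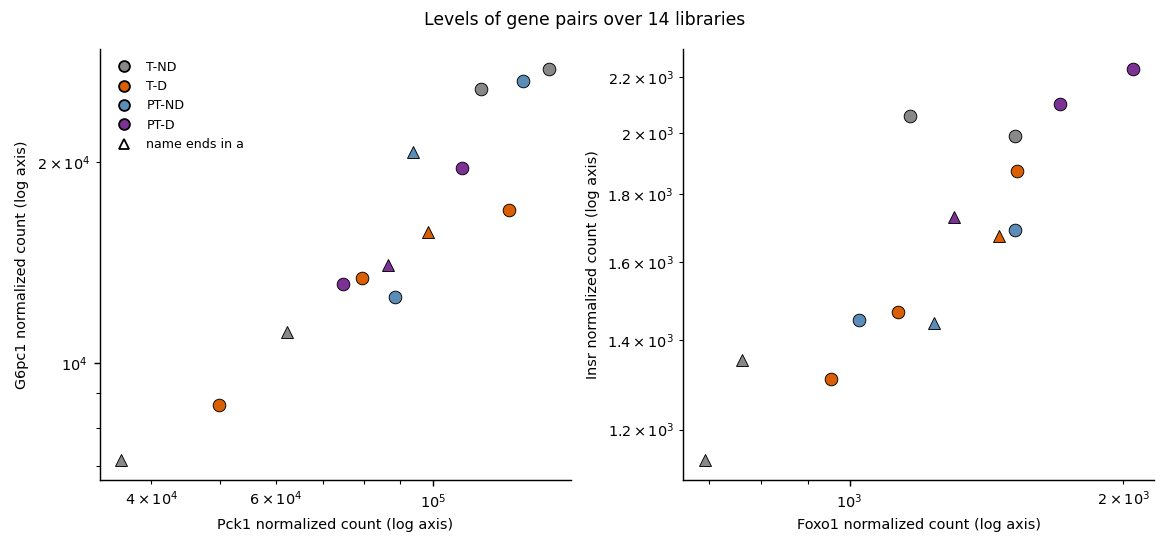
Normalized counts (both axes logarithmic) of Pck1 against G6pc1 and of Foxo1 against Insr in the 14 kidneys, colored by group, with triangles for libraries whose name ends in a. Points of all groups follow a rising line in both panels, with r of 0.934 and 0.872 on the log2 scale, and T-ND holds both the lowest and the highest Pck1 kidney.

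Leaving out the 5 libraries whose name ends in a moved the estimates of these genes in term mice. The log2 fold change of T-D over T-ND for Pck1 went from -0.04 to -0.62 (adjusted p = 0.647), that of G6pc1 from -0.40 to -1.03 (0.625) and that of Ppargc1a from -0.50 to -0.90 (0.625). That of Foxo1 went from 0.28 to -0.16 (0.86). In preterm mice Irs2 gave 1.28 without these libraries and stayed called (adjusted p = 0.0106).

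The genes most like each of the 10 were sought among the 12155 genes whose mean normalized count reached 50, by Pearson's r of log2 levels over the 14 libraries. Besides G6pc1, Pck1 was closest to Wbp1l (0.917) and Slc25a15, a mitochondrial ornithine carrier (0.9), and G6pc1 was closest to Pck1, Pnpla7 (0.908) and Wbp1l (0.881). Foxo1 was closest to Klf9, a glucocorticoid-induced factor (0.965), its relative Foxo3 (0.945) and Ulk1, a kinase that starts autophagy (0.933). Insr was closest to Igf1r, the related IGF1 receptor (0.942), Fkbp5 (0.933) and 9130016M20Rik (0.926). All of these kept an r of at least 0.905 after group means were subtracted. For Depp1 the closest was Pgm2, a phosphoglucomutase, with r of 0.904, which fell to 0.588 within groups, followed by Carhsp1 (0.828, and 0.171 within groups) and Hmga1 (0.814, and 0.366). Irs2 was closest to Pank3 (0.907), Snrnp200 (0.9) and Erc1 (0.899), and Irs1 to Alg2 (0.916), Prkci (0.908) and Usp33 (0.903). Fbp1 was closest to Cyba (0.953), Timm50 (0.952) and Npepl1 (0.946), Pcx to Rnf123 (0.966), Mroh1 (0.953) and Pcnx3 (0.949), and Ppargc1a to Esrp2 (0.92), Sfxn2 (0.909) and Jade1 (0.907). All points share their library, and these values are a description.

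As a group, the 10 genes had a median log2 fold change of -0.04 in T-D over T-ND, beside -0.02 over all genes. In PT-D over PT-ND the median was 0.28 beside 0.05 over all genes, with 6 of 10 higher. In PT-D over T-D it was 0.35 beside 0.06, with 9 of 10 higher and Fbp1 lower. In PT-D over T-ND it was 0.15 beside 0.03, and in PT-ND over T-ND 0.16 beside 0.00 (-0.00053).

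The other enzymes of the path were read from a list of 18, among them Pck2, Slc37a4, Mdh1 and G6pc3. In term mice 17 of the 18 had a higher mean after STZ, with a median log2 fold change of 0.22 beside -0.02 over all genes. None was called by edgeR or DESeq2 (3 had an unadjusted p under 0.05, against 11.8% of all genes). In preterm mice 17 of 18 had a lower mean after STZ, with a median of -0.21 beside 0.05. Of these 1 was called, against 12.9% of all genes. It was G6pc3, a glucose-6-phosphatase found in most tissues, which fell by 0.51 on the log2 scale (SE 0.14, adjusted p = 0.0376). The call of G6pc3 was lost in 5 of the 6 fits that left out 1 library. For PT-D over T-D all 18 were lower, with a median of -0.41 beside 0.06. By edgeR none was called, against 0.193% of all genes, while DESeq2 called 4 of the 18 and 2262 of all 22265 genes. An unadjusted p under 0.05 was held by 7, against 22.3% of all genes. For the interaction 16 of 18 were negative with a median of -0.49 beside 0.07. Here G6pc3 alone of the 18 was called (-0.69, SE 0.19, adjusted p = 0.0412), against 6.23% of all genes. Of 6 genes of glutamine use and acid handling none was called by edgeR in any comparison. Between PT-D and PT-ND 3 had an unadjusted p under 0.05, against 29.1% of all genes. DESeq2 called 2 of the 6 there, and 4219 of all 22284 genes.

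A list of 24 genes of the insulin cascade, from the related receptor Igf1r to PI3-kinase, AKT, FOXO factors and the GSK3 and mTOR branches, gave no call in term mice by edgeR or DESeq2 (2 had an unadjusted p under 0.05), and its median log2 fold change was -0.04. The share of all genes called was itself 0.0673% in term and 12.9% in preterm mice, and 6.23% for the interaction. Every count of list genes called below is to be read against the share of its comparison. At an unadjusted p under 0.05 the shares were 11.8% in term and 29.1% in preterm mice. DESeq2 called 472 of 22233 genes in term and 4219 of 22284 in preterm mice. In preterm mice 5 of the 24 rose and 1 fell with STZ, and the median was 0.26 beside 0.05 over all genes. Among the 5 was Pik3r1, a regulatory subunit of PI3-kinase (0.89, SE 0.17, adjusted p = 0.0112). The gene that fell was Pik3r2, another regulatory subunit (-0.60, SE 0.14, adjusted p = 0.0207). For the interaction Pik3ca, a catalytic subunit, was called (0.96, SE 0.19, adjusted p = 0.0199). Without PT-ND replicate 2 none of the 24 was called between PT-D and PT-ND, and without the 5 libraries named with a 1 was.

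Of 12 inhibitors of the insulin signal, Pik3ip1, which binds PI3-kinase (1.24, SE 0.19, adjusted p = 0.00519), and Ptpn1, a phosphatase that acts on the receptor (0.63, SE 0.18, adjusted p = 0.0432), rose with STZ in preterm mice. With upper quartile normalization, in the joint fit or without the 5 libraries named with a, Pik3ip1 alone was called there. Socs3, an inhibitor of cytokine and insulin receptors, had means of 211 ± 73.4 normalized counts in T-ND, 779 ± 282 in T-D, 825 ± 374 in PT-ND and 560 ± 273 in PT-D. In term mice its log2 fold change was 1.87 ± 0.32 (adjusted p = 0.0692). DESeq2 called Socs3 there, with Socs1, and in the joint fit Socs3 alone of the 12 was called. Its interaction of -2.44 ± 0.56 was called (adjusted p = 0.0282). Socs1 (-2.31, adjusted p = 0.0351) and Grb10 (0.94, adjusted p = 0.0443) were also called for the interaction, where 6.23% of all genes were called. Leaving out PT-ND replicate 3, PT-D replicate 2 or PT-D replicate 3 left no gene of the 12 called for it.

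Of 17 other FOXO targets, 4 rose with STZ in preterm mice, where 12.9% of all genes were called: Ccng2 (0.72, adjusted p = 0.0233), Igfbp1, a binding protein for insulin-like growth factors (1.21, adjusted p = 0.0242), Sesn3 (0.70, adjusted p = 0.0318) and Cdkn1b. The median of the 17 was 0.06 there beside 0.05 over all genes, and without PT-ND replicate 2 none of the 17 was called. In term mice 13 of 17 had a higher mean and edgeR called none, against 0.0673% of all genes. An unadjusted p under 0.05 was held by 8, against 11.8% of all genes. DESeq2 called 6 of the 17, and 472 of all 22233 genes. The smallest p was that of Ddit4, a stress-induced inhibitor of mTOR (2.21 ± 0.39, adjusted p = 0.0711). Over both births Ddit4 rose by 1.77 ± 0.34 (adjusted p = 0.0307). Fbxo32, a ubiquitin ligase, rose in PT-D over T-ND (0.99 ± 0.22, adjusted p = 0.046), and its interaction was -1.29 ± 0.36 (adjusted p = 0.0479).

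Among 18 transcriptional regulators of the path, 4 rose and 1 fell with STZ in preterm mice (12.9% of all genes were called), led by Pprc1, a relative of PGC-1alpha (1.01, adjusted p = 0.00768), and the CREB pair Crebbp (0.76, adjusted p = 0.0116) and Creb1 (0.79, adjusted p = 0.0121). Without PT-ND replicate 2, 1 of the 18 was called. The interaction was called for Creb1 (0.89), Esrra (-0.91), Nr3c1 (0.90) and Cebpb, where 6.23% of all genes were called. Of 7 targets of the glucocorticoid receptor, Zbtb16 (1.43, adjusted p = 0.00768), Tsc22d3 (0.83, adjusted p = 0.0113) and Fkbp5 (0.82, adjusted p = 0.0156) rose with STZ in preterm mice, and in the joint fit none of the 7 was called there. In term mice none of the 7 was called by edgeR or DESeq2 (2 had an unadjusted p under 0.05). The shares over all genes were 12.9% and 0.0673%. Of 16 genes of glycolysis and pyruvate use, Pdk3 (-0.87, adjusted p = 0.0142) and Pdk1 (-0.68, adjusted p = 0.0432), kinases that hold back pyruvate dehydrogenase, fell in PT-D against PT-ND, and Pdk3 fell against T-ND as well (-0.90, adjusted p = 0.0302). In the joint fit Pdk3 alone of the 16 was called between PT-D and PT-ND, and without the 5 libraries named with a none was. Over these 8 lists, the calls in PT-D over T-ND, over both births and for the interaction went to 0 in every list without the 5 libraries named with a, and in every list in at least 1 of the fits that left out 1 library.

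**Figure D4:**
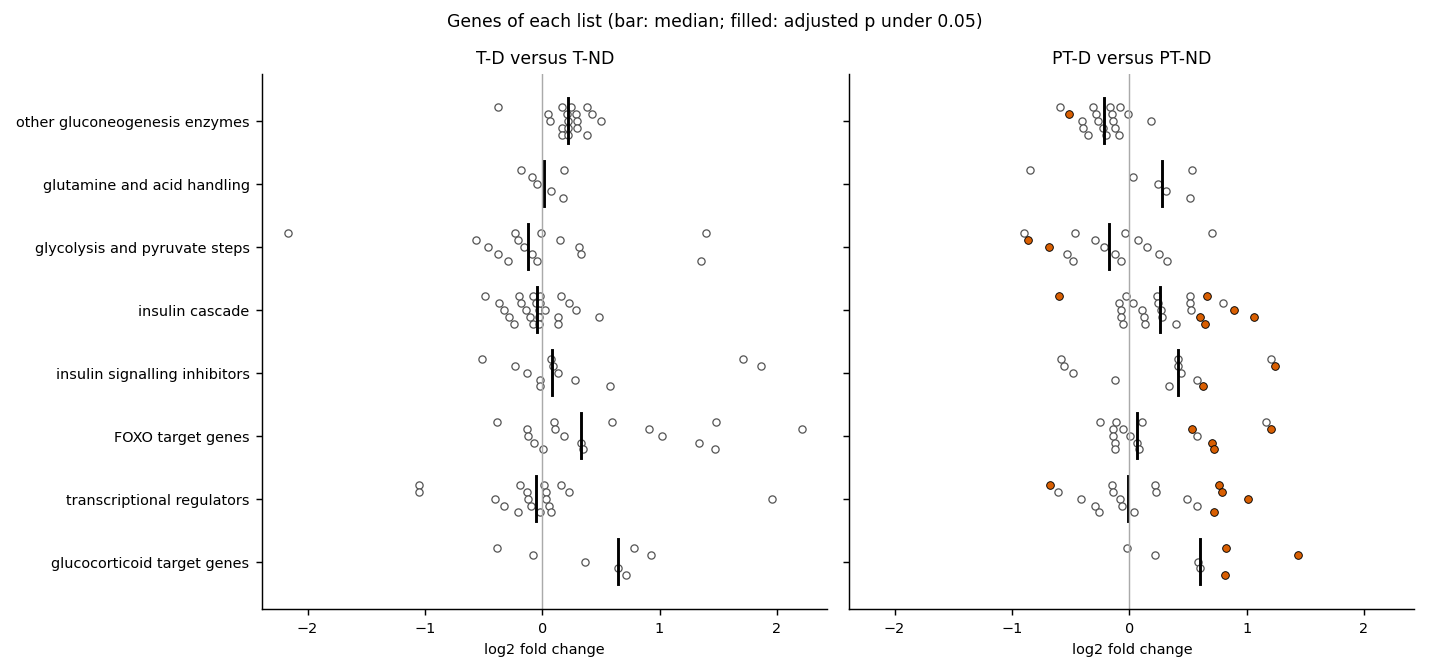
Log2 fold change (x axis) of each gene of 8 lists (y axis) for T-D over T-ND and PT-D over PT-ND; bars are list medians and filled points have an adjusted p under 0.05. No point is filled in term mice, and the list of other gluconeogenesis enzymes has a median of 0.22 in term and -0.21 in preterm mice.

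Markers of several other cell types differed between PT-D and PT-ND, a comparison in which 12.9% of all genes were called. The summed level of 10 endothelial markers was 11280 to 14900 normalized counts in PT-D against 7287 to 12210 in PT-ND, 5210 to 10050 in T-D and 9273 to 9985 in T-ND, and in PT-D over PT-ND 4 of the 10 rose, among them Cdh5 (1.37, adjusted p = 0.00726), while 3 had lower means. The summed level of 4 podocyte markers was 9676 to 12930 in PT-D against 5278 to 9135 in PT-ND, and 3 of the 4 rose. In the joint fit 1 of the 4 was called, and without the 5 libraries named with a none was. The summed level of 3 smooth muscle markers was 736 to 1595 in PT-D against 567 to 689 in PT-ND, and Myh11 rose (1.35, adjusted p = 0.048). Myh11 was not called with upper quartile normalization, in the joint fit or without the 5 libraries named with a. Of 7 leukocyte markers 4 had higher and 3 lower means, and Adgre1 (1.07, adjusted p = 0.0224) and Ptprc (0.94, adjusted p = 0.0469) rose. Their sums overlapped, at 1399 to 2409 in PT-D and 2183 to 2941 in PT-ND. In the joint fit none of the 7 was called. With upper quartile normalization, or without the 5 libraries named with a, Adgre1 alone of the 7 was called. Of 7 collecting duct markers 3 had higher and 4 lower means, and Slc4a1 fell (-1.58, adjusted p = 0.00655). Their sums overlapped, at 7526 to 17640 in PT-D and 12860 to 20460 in PT-ND. Of 10 proximal tubule markers edgeR called none (3 had an unadjusted p under 0.05 and DESeq2 called 1), and their sums overlapped, at 152300 to 189600 in PT-D and 185600 to 204100 in PT-ND. Endothelial cells and podocytes carry insulin receptors and their adaptors, and the part of these markers in the Irs2 and Insr values of PT-D was not tested. Of 5 hepatocyte markers, among them Alb and Cyp2e1 (which the tubule also expresses), 4 had higher means in PT-D over PT-ND and 1 lower. Cyp2e1 was called there by edgeR, but not in the joint fit or without the 5 libraries named with a. The summed level was 5201 to 9638 normalized counts in PT-D, above the 3296 to 4738 of PT-ND, and 5205 to 6278 in T-D. Alb alone stood at 125 to 594. In the T-ND kidneys the sum was 2546, 1850.4, 5076 and 6806, low in the 2 kidneys with low Pck1 and G6pc1. Outside T-ND the order differed: T-D replicate 4, with Pck1 at 49948, held 5205 of the summed markers, and PT-ND replicate 1, with Pck1 at 134250, held 3296. The part of these markers in the Pck1 and G6pc1 levels was not tested.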

How the data were processed

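Messenger RNA of 14 whole kidneys, each listed in the labels as a separate sample, was sequenced from un-stranded libraries. The deposited values are raw read counts per gene, which the authors obtained with STAR against GRCm39 (per the labels). The second column of each file, the count that ignores strand, was used. Of the uniquely mapped reads, those in more than 1 gene made up 6.86% to 8.09% and those in no gene 2.39% to 5.42%, and these summary lines stayed out of library sizes. The study names GENCODE release M36. Here the 56980 identifiers were matched without version to release M39, which held 56236 of them.

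Genes with a total count over 10 across the 14 libraries (22339) were scaled by TMM and tested with edgeR 4.0.16 (R 4.3.3), quasi-likelihood F test, two-sided, with Benjamini-Hochberg adjustment over all genes tested. For a comparison of 2 groups the model held only the libraries of both. The STZ effect over both births (with birth as a term) and the interaction were fitted on all 14. A gene was called at an adjusted p under 0.05. Normalized counts and their SD are descriptive. Intervals are at the 95% level, from the same fits. Figures were drawn with matplotlib 3.10.9 in Python 3.11.15. The 10 genes and the lists were chosen with earlier results of these data known. In the lists, up to 3 called genes with the smallest adjusted p were named, or the one with the smallest where none was called, and other list genes were named after their values were seen. The settings varied were the tool (DESeq2 1.42.0), the scaling factors (upper quartile, RLE), the filter, a joint fit of the groups, the library-name letter or the replicate number as a term, leaving out the 5 libraries named with a, and leaving out each library in turn. Depth sets the precision least well for Irs1, with 10 to 101 counts per library. No sample was left out of the main fits. Some list genes are not reported here by name.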

Additional observations from a re-analysis of the deposited data

Results flagged for a closer look

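Of the 20 sets of 4 term kidneys examined (10 genes in T-ND and in T-D), 2 held a kidney far from the other 3 by Dixon's ratio, and chance gives about 1 in 20. Depp1 stood at 475.0 normalized counts in T-ND replicate 4 against 228 to 234 in the others (ratio 0.977). Irs2 stood at 1070.0 normalized counts in the same kidney against 459 to 520 in the others (ratio 0.9). Without T-ND replicate 4, the log2 fold change of T-D over T-ND was 2.26 for Depp1 (adjusted p = 0.00442) and 0.49 for Irs2 (adjusted p = 0.536) by edgeR.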

How the results depend on the processing

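None of the 1240 recomputed values of the 10 genes took the opposite direction in a call, 1215 kept their side of the threshold, 10 lost a call and 15 gained one; 76 values without a call changed sign. Of 2625 values of 150 named list genes, 286 lost a call, 135 gained one and 0 reversed. The number of genes called over the whole table moved more, and the cause was not tested.

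With DESeq2, 472 genes were called for T-D over T-ND (15 by edgeR), 2262 for PT-D over T-D (43), 2750 for PT-D over T-ND (616), 294 for PT-ND over T-ND (18), 890 for STZ over both births (137) and 3086 for the interaction (1392). With no filter these were 120, 1694, 1341, 97 and 496 (interaction within 1.5 times). With filterByExpr they were 22 for PT-D over T-D, 1031 for PT-D over T-ND and 8 for PT-ND over T-ND. The joint fit gave 69 for T-D over T-ND and 1323 for PT-D over T-D. The library-name letter as a covariate gave 23 for PT-D over T-D, 976 for PT-D over T-ND and 47 for PT-ND over T-ND. Without the 5 libraries named with a, fewer samples left 1 for T-D over T-ND, 956 for PT-D over PT-ND (2881), 17 for PT-D over T-D, 70 for PT-D over T-ND, 10 for STZ and 12 for the interaction. Leaving out 1 library gave 2 to 314 for T-D over T-ND, 856 to 3453 for PT-D over PT-ND, 26 to 241 for PT-D over T-D, 28 to 2356 for PT-D over T-ND, 1 to 100 for PT-ND over T-ND, 36 to 869 for STZ and 76 to 1703 for the interaction.

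Of the 10 genes, 1 was called for T-D over T-ND (0 to 1 without 1 library, 0 without the a libraries), 1 for PT-D over PT-ND (0 to 1 without 1 library, 0 in the joint fit) and 1 for PT-D over T-ND (0 to 2 without 1 library, 2 with the letter as covariate, 0 without the a libraries). None was called for PT-D over T-D (1, Irs2, with no filter), PT-ND over T-ND (1, Depp1, by DESeq2 and with no filter), STZ over both births (1 by DESeq2, 1 with no filter, 0 to 1 without 1 library) and the interaction (3 by DESeq2, 1 with no filter, 0 to 1 without 1 library).

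The replicate numbers did not pair the samples: the deviations of the 19 same-numbered pairs correlated at -0.122 to 0.134. With the replicate number as a block, 87 genes were called for PT-D over T-D, 73 for PT-D over T-ND, 6 for PT-ND over T-ND, 51 for STZ, 668 for the interaction, 19 for T-D over T-ND and 2946 for PT-D over PT-ND. Of the 10 genes, Irs1 alone gained a call with the block, for the interaction (adjusted p = 0.0485, 1 gene called).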
